A study of Mus musculus with 23 samples.

Results

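Transcription factor genes that pattern the limbs and the trunk of the embryo were followed across cultures of mouse embryonic fibroblasts (MEFs). These were 9 genes, Tbx2, Tbx3, Tbx4, Tbx5, Tbx15, Tbx18, Pitx1, Shox2 and En1, which were chosen by name as positional identity factors outside the Hox clusters, and all 9 were found among the 55487 genes of the count table. RNA-seq was performed on 23 libraries of primary MEFs of the FVB/NJ strain, prepared from midgestation embryos whose head and organs had been taken away, so that limbs and trunk both contributed cells. The embryos carried 1 of 4 homozygous genotypes of the glucocorticoid receptor (GR), a ligand-activated transcription factor. The receptor was unaltered in GRwt/wt cells. It carried a threonine in place of an alanine in GRD/D cells, at the surface through which the DNA-binding domains of a dimer meet. It carried an alanine in place of an isoleucine in GRL/L cells, within the domain that binds ligand, and GRD+L/D+L cells had both substitutions. The L and D+L alleles had been made by genome editing of zygotes that carried a D allele, the D+L line descended from a single founder, and embryos came from crosses of heterozygous parents. Cells of each genotype received vehicle or dexamethasone (Dex), a synthetic GR ligand, at 10 nM for 5 h. This gave 8 groups of 3 libraries, except GRD/D vehicle with 2, and the cultures of a genotype came from different embryos.

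These genes act as address labels of the embryonic mesenchyme. Pitx1 and its target Tbx4 specify hindlimb, whereas Tbx5 initiates the forelimb. Tbx2 and Tbx3 encode T-box repressors of the limb margins and flank. Shox2 shapes the proximal limb skeleton, Tbx15 and Tbx18 are expressed in dermal and paraxial mesenchyme and act in the scapula, and En1 marks ventral limb ectoderm and a lineage of dermal fibroblasts of the trunk. Fibroblasts keep part of such positional expression in culture. In bulk RNA, fewer cells that express a gene and less RNA per cell cannot be told apart.

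Libraries held 16452539 to 23117080 counts, and between 18667 and 20200 genes were detected in each. Summed levels of 12 fibroblast markers were 44266 to 69366 CPM (counts scaled to library size), so that the labelled cell type was seen in each library. GRwt/wt vehicle replicate 1 stood apart: its highest Spearman correlation with any other library was 0.916, against at least 0.973 for the rest. The altered gene, Nr3c1, was at 4.08 CPM in that library and at 44.5 to 265 CPM in the others, and gene counts cannot show the single-residue changes, so the genotype labels were not checked by them. GRwt/wt vehicle replicate 3 held 4906 CPM over 12 macrophage markers, 3379 CPM of it from Lyz2, against 1716 CPM or less in every other library. Replicate 1 of GRD+L/D+L held 246 CPM (vehicle) and 297 CPM (Dex) over 8 cartilage markers, against 91.9 CPM or less elsewhere. Col2a1 made up 184 and 231 CPM of these sums and Sox9 made up 49.9 and 55.5 CPM. Acan, Col9a1 and Hapln1 were highest in GRwt/wt Dex libraries, and Matn1 and Cnmd had no more than 3 counts in any library. Replicate 1 of GRwt/wt held 246 CPM (vehicle) and 191 CPM (Dex) over 6 mesothelial markers, against 112 CPM or less elsewhere. Heart muscle markers were highest in the same replicate 1 libraries (24.5 and 18.1 CPM, against 3.25 CPM or less elsewhere). Marker sums of epithelium (at most 5.79 CPM), skeletal muscle (at most 1.87 CPM) and endothelium (at most 21.8 CPM) were low throughout, and those of neural and glial cells were 175 to 617 CPM. The part of these cells in the results below was not tested.

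All 9 genes passed the filter on low counts, but their levels spanned a wide range. Per kilobase of exon, the median level over the 23 libraries was highest for Tbx15 with 34.7 CPM per kb. En1 (9.87 CPM per kb) and Shox2 (9.31 CPM per kb) followed, then Tbx18 (3.37), Tbx3 (2.26), Tbx2 (1.32), Tbx5 (1.19), Tbx4 (0.897) and Pitx1 (0.723 CPM per kb). The dermal and proximal limb factors therefore led, and the genes that tell forelimb from hindlimb were lowest. Tbx4 and Pitx1 were also the genes with libraries at 0, namely 3 and 1 of 23.

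**Figure D1:**
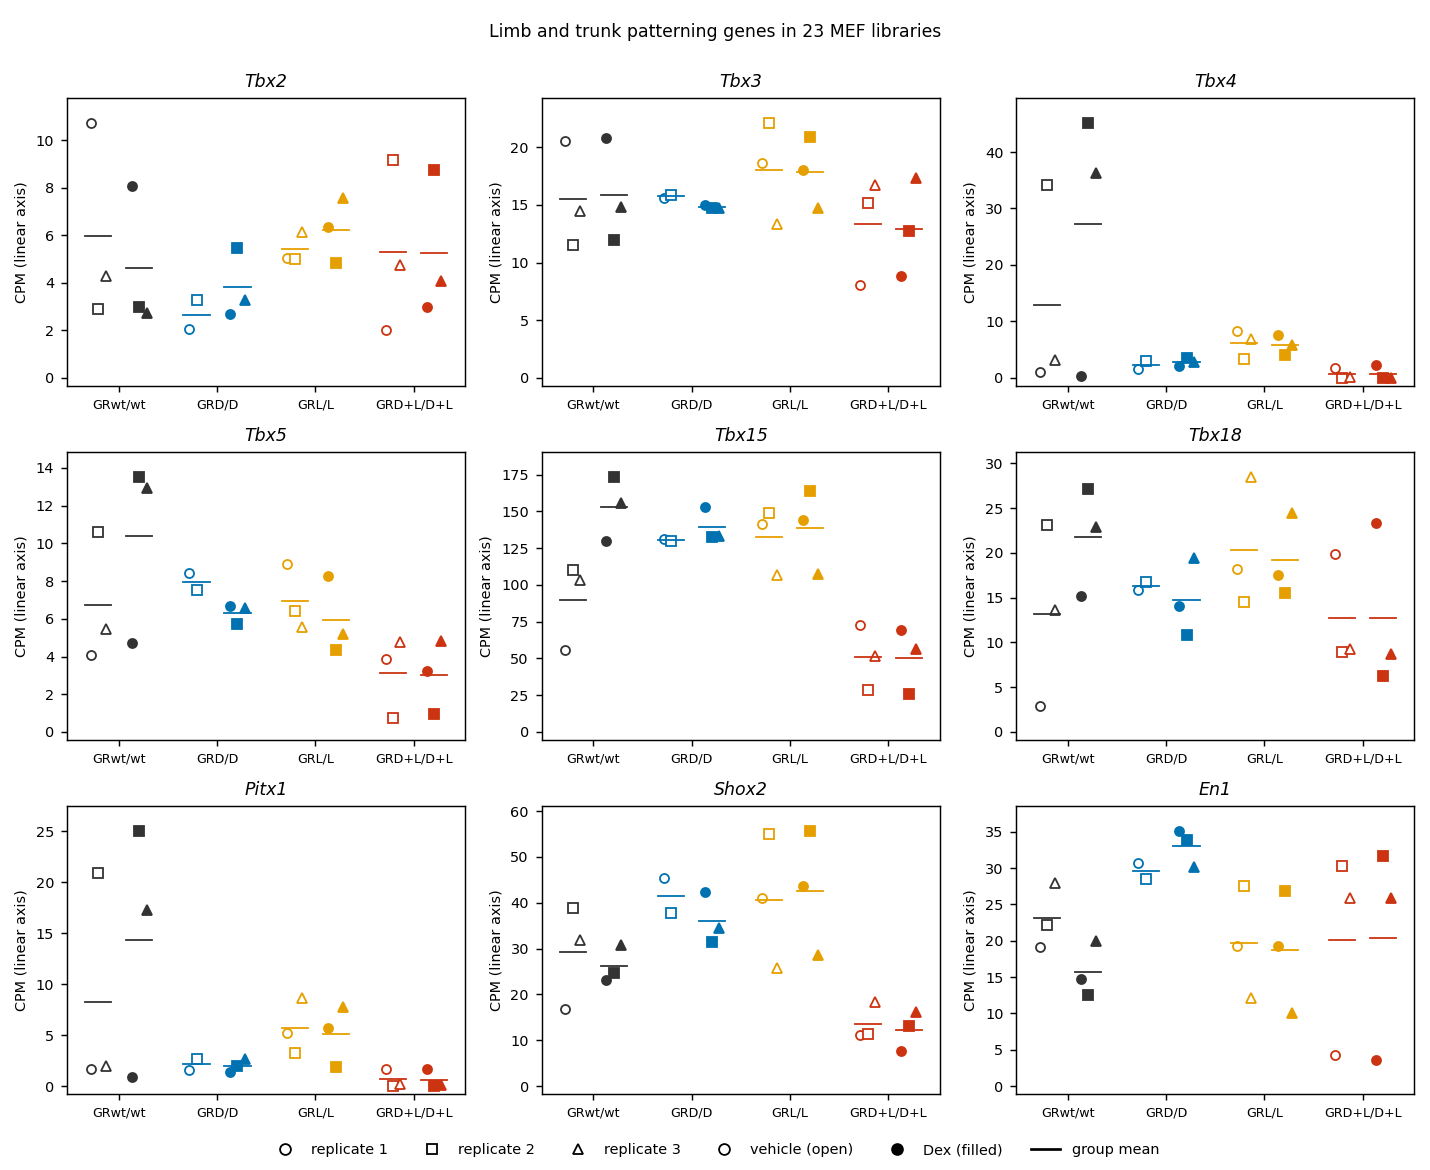
Level of each gene in CPM (linear axes from 0) in every library, grouped by genotype, with open symbols for vehicle, filled symbols for Dex, a symbol shape per replicate number and a bar for the group mean. Tbx15 and Shox2 sit lowest in GRD+L/D+L, and Tbx4 and Pitx1 reach 45.1 and 24.97 CPM in single GRwt/wt libraries and are near 0 in others.

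The hindlimb genes differed widely between cultures of the same genotype. Pitx1 (chr13:55825051-55836192, minus strand) lies at the top of the hindlimb programme, and Tbx4 (chr11:85886422-85916097, plus strand) below it. In GRwt/wt vehicle, Tbx4 had 20, 636 and 72 counts in replicates 1, 2 and 3, or 1.10, 34.1 and 3.26 CPM. Pitx1 had 30, 390 and 44 counts in the same libraries, or 1.65, 20.9 and 1.99 CPM. A single culture, replicate 2, thus carried most of the hindlimb signal of that group. In GRwt/wt Dex, Tbx4 had 7, 962 and 580 counts and Pitx1 had 17, 533 and 276 counts, so that replicates 2 and 3 were high and replicate 1 was low.

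The mutant cultures lay below the 3 highest of these libraries. In GRL/L vehicle, Tbx4 was at 8.38, 3.39 and 6.88 CPM and Pitx1 at 5.16, 3.28 and 8.64 CPM. In GRD/D vehicle, Tbx4 was at 1.63 and 3.05 CPM and Pitx1 at 1.58 and 2.69 CPM. In GRD+L/D+L, Tbx4 had 35, 0 and 2 counts in vehicle and 41, 0 and 0 counts in Dex, and Pitx1 had 33, 1 and 3 counts and 30, 0 and 1 counts. Only replicate 1 of this genotype held more than 3 counts of either gene, and a count of 0 allows up to 3. These GRD+L/D+L replicate 1 libraries are those with the high Col2a1 and Sox9 levels.

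Across the 23 libraries, Tbx4 and Pitx1 moved together, with a Spearman rho of 0.946 and a Pearson r of 0.980 on log2 CPM. Many of these libraries share a culture or a genotype, so this is a description of the set. Of the 13240 genes with a mean of at least 1 CPM, Htra3, which encodes a secreted serine protease, had the pattern most like both Pitx1 (rho 0.981) and Tbx4 (rho 0.952). Spock3 (rho 0.947) came next for Tbx4, and Tbx4 itself came next for Pitx1.

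**Figure D2:**
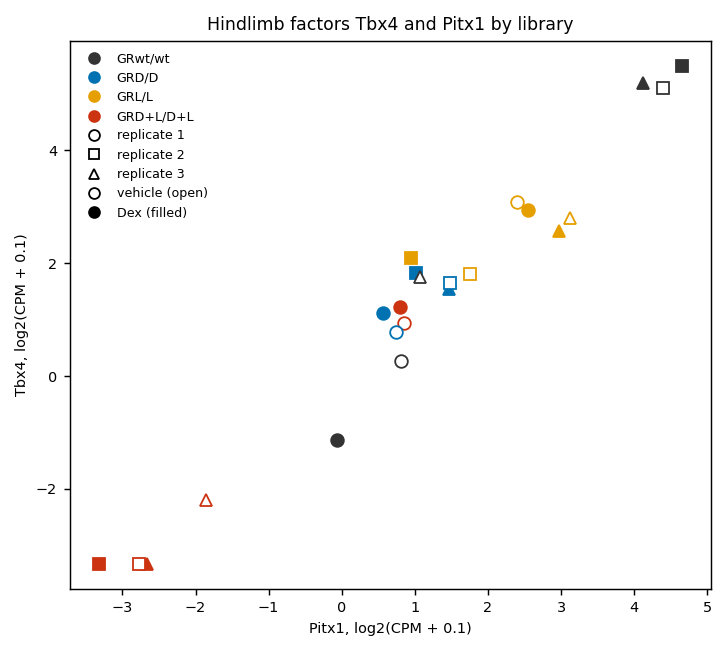
Tbx4 against Pitx1 on the log2(CPM + 0.1) scale, 1 point per library, with colour for genotype, shape for replicate number, open symbols for vehicle and filled symbols for Dex. Vehicle replicate 2 and Dex replicates 2 and 3 of GRwt/wt stand at the upper right, and replicates 2 and 3 of GRD+L/D+L at the lower left.

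Tbx5 (chr5:119832668-119885219, plus strand), the forelimb gene, was detected in all 23 libraries with 16 to 288 counts. In GRwt/wt vehicle it was at 4.08, 10.6 and 5.48 CPM, and in GRwt/wt Dex at 4.70, 13.5 and 12.9 CPM. Both its high and low libraries were thus those of Tbx4, although the 2 genes mark different limbs. In GRD+L/D+L vehicle it was at 3.89, 0.732 and 4.77 CPM, and in Dex at 3.21, 0.977 and 4.82 CPM, with replicate 2 lowest in both. Per kilobase, Tbx4 exceeded Tbx5 in 8 of 23 libraries, of which 5 were GRL/L and 3 GRwt/wt. The log2 ratio of Tbx4 to Tbx5, with 0.1 CPM per kb added to each, reached 2.16 in GRwt/wt Dex. At the low end were GRD+L/D+L libraries with 0 to 2 counts of Tbx4, where the added 0.1 sets the ratio, and the lowest library with more than 3 counts of Tbx4 was GRwt/wt Dex replicate 1 (-2.44). The genes with the pattern most like Tbx5 were Lmx1b (rho 0.883), a dorsal limb factor, and Hoxa10 (rho 0.881).

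Shox2 (chr3:66971727-66981771, minus strand) was lowest in GRD+L/D+L. In GRwt/wt vehicle it was at 16.8, 38.9 and 31.8 CPM, and in GRD+L/D+L vehicle at 11.1, 11.3 and 18.3 CPM. These ranges overlapped only through GRwt/wt replicate 1, the library that stood apart. GRD/D vehicle held 45.5 and 37.7 CPM, GRL/L vehicle 41.0, 54.9 and 25.8 CPM, and neither group overlapped GRD+L/D+L. Of all genes, 23% lay lower in GRD+L/D+L than in GRD/D without overlap, and 13.1% lower than in GRL/L. The log2 fold change (LFC) of GRD+L/D+L against GRwt/wt in vehicle was -1.11 (SE 0.346, adjusted p = 0.0323 by edgeR's quasi-likelihood test with Benjamini-Hochberg adjustment over 15748 genes), past the thresholds of an adjusted p of 0.05 and an absolute LFC of 1. Against GRD/D it was -1.62 (SE 0.377, edgeR adjusted p = 0.0373), also called, and against GRL/L -1.58 (SE 0.349, edgeR adjusted p = 0.0931), not called. The first call was lost without GRwt/wt vehicle replicate 2 (LFC -0.85) or 3 (-0.998), and likewise when GRD+L/D+L vehicle replicate 1 (-0.95) or 2 (-0.99) was left out. The second was lost when either GRD/D replicate (-1.48 and -1.73) or GRD+L/D+L vehicle replicate 1 (-1.48) or 2 (-1.503) was left out. Both calls were also lost without the expression filter (edgeR adjusted p = 0.0576 and 0.0506) and with only the groups compared in the fit (edgeR adjusted p = 0.405 and 0.0695). The fit of all groups treats vehicle and Dex libraries of the same culture as independent. Its SEs and adjusted p-values for genotypes can therefore be too small. Under Dex the order was alike, with 23.1, 24.6 and 30.8 CPM in GRwt/wt and 7.56, 13.0 and 16.1 CPM in GRD+L/D+L, which did not overlap (14.7% of all genes lay lower in this way), at an LFC of -1.10 (SE 0.347, edgeR adjusted p = 0.0767), not called.

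Exons of Rsrc1, a protein-coding gene on the opposite strand, overlap those of Shox2, and the counting is not stated to have used strand. Rsrc1 was correlated with Shox2 across libraries (rho 0.877), and reads of both genes in the shared exons could not be told apart if strand was ignored. Its own LFC in the comparisons where Shox2 was called was 0.01 (SE 0.337) against GRwt/wt and -0.57 (SE 0.373) against GRD/D, neither called. Exons of other members are overlapped too, by Gm47071 (opposite strand, 0 to 19 counts a library, rho 0.639) and Gm28760 (same strand, 0 to 3 counts) at Pitx1, Tbx3os1 (opposite strand, 4 to 19 counts) at Tbx3 and D030062O11Rik (opposite strand, 2 to 27 counts) at Tbx18. Of these, Gm47071 was called lower in GRD+L/D+L against GRwt/wt in vehicle (edgeR adjusted p = 0.0280). C1qtnf2 (rho 0.939) and Ldb2 (rho 0.905), which encodes a LIM-domain cofactor, had the patterns most like Shox2.

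Because Shox2 was the member called most often and Tbx4 the member with the widest range, the 250 bases before their RefSeq start sites (GRCm38.p6) are shown, at chr3:66981772-66982021 on the minus strand for Shox2 and chr11:85896515-85896764 on the plus strand for Tbx4. The Tbx4 start lies inside the gene and downstream of its first annotated exon, in what is an intron of the longer transcript. Capitals mark AGAACA or its reverse complement TGTTCT, the hexamer bound by a GR monomer.
Shox2: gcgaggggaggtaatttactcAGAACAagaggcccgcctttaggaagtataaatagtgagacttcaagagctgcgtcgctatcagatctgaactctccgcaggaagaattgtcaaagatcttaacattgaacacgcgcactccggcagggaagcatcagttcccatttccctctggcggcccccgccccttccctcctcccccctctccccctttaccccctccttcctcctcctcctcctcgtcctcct
Tbx4: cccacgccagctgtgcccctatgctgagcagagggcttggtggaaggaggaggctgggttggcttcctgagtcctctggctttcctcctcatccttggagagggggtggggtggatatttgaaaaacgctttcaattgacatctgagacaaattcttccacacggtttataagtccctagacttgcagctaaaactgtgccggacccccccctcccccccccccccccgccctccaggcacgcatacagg
Windows for 4 of the 9 members (Shox2, Tbx4, En1 and Tbx18) were searched. Shox2 held a single hexamer, 229 bases before its start, and the other three held none. The hexamer was in 16.1% of 32851 promoter windows of the same length, and the palindromic response element, in which the hexamer and its reverse complement stand 3 bases apart, in 0.00913%, with no match in these 4. The T-box motif AGGTGTGA (1.12% of windows) and the Pitx motif TAATCC (6.25%), searched on both strands, had no match in them either. A match is a run of letters and not a measured binding site.

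Tbx15 (chr3:99240381-99354259, plus strand), a factor of dermal mesenchyme, was also lowest in GRD+L/D+L. Under Dex it was at 130, 173 and 156 CPM in GRwt/wt and at 69.4, 25.7 and 56.1 CPM in GRD+L/D+L. The groups did not overlap, and 14.7% of all genes lay lower in this way. The LFC was -1.60 (SE 0.345, 95% interval -2.33 to -0.87, edgeR adjusted p = 0.0161), and the gene was called. It was lost without GRD+L/D+L Dex replicate 2 (LFC -1.28) and without GRwt/wt Dex replicate 3 (-1.59), and with only the groups compared in the fit (-1.59, edgeR adjusted p = 0.104). In vehicle, GRwt/wt was at 55.8, 110 and 103 CPM and GRD+L/D+L at 72.6, 28.4 and 52.0 CPM. Here the ranges overlapped through GRwt/wt replicate 1, and the LFC of -0.81 (SE 0.339, edgeR adjusted p = 0.0964) was not called. GRD/D (130 and 131 CPM) and GRL/L (107 to 149 CPM) vehicle libraries all lay above GRD+L/D+L, as for 23% and 13.1% of all genes. The LFCs of GRD+L/D+L were -1.35 (SE 0.372, edgeR adjusted p = 0.0757) and -1.38 (SE 0.343, edgeR adjusted p = 0.145), not called. Within GRD+L/D+L, replicate 2 was lowest in both treatments. Lpar1 (rho 0.932), a lysophosphatidic acid receptor gene, and Tgfbr3 (rho 0.918) had the patterns most like Tbx15.

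Tbx18 (chr9:87702800-87731260, minus strand), the closest relative of Tbx15, followed a different order of libraries. It ranged from 2.92 CPM in GRwt/wt vehicle replicate 1 to 28.4 CPM in GRL/L vehicle replicate 3. In GRD+L/D+L it was highest in replicate 1, with 19.8 CPM in vehicle and 23.4 CPM in Dex, and 6.26 to 9.30 CPM in replicates 2 and 3. Among the comparisons of genotypes, its LFC of largest size was -0.76 (SE 0.563, edgeR adjusted p = 0.464), for GRD+L/D+L against GRwt/wt under Dex. Map4k3 (rho 0.939) and Gpsm2 (rho 0.935) had the patterns most like it.

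En1 (chr1:120602418-120607992, plus strand) ran opposite to Tbx18, with a rho of -0.601 over the 23 libraries. In GRD+L/D+L it was at 4.25, 30.3 and 25.9 CPM in vehicle and at 3.64, 31.7 and 25.9 CPM in Dex, so that replicate 1 was far below the others in both treatments. In GRL/L, replicate 3 was lowest with 12.2 CPM (vehicle) and 10.0 CPM (Dex), where Tbx18 was highest. Under Dex, GRD/D (30.1 to 35.1 CPM) lay above GRwt/wt (12.6 to 20.0 CPM) without overlap, as 11.4% of all genes did, at an LFC of 1.07 (SE 0.625, edgeR adjusted p = 0.599), not called. Serpinf1 (rho 0.915), which encodes a secreted antiangiogenic factor, and Fyn (rho 0.899), a kinase gene, had the patterns most like En1.

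Tbx2 (chr11:85832551-85841948, plus strand) and Tbx3 (chr5:119670669-119684724, plus strand), the T-box repressors, lie beside Tbx4 and Tbx5 in the genome. Tbx2 was highest in GRwt/wt vehicle replicate 1 with 10.7 CPM and lowest in GRD+L/D+L vehicle replicate 1 with 2.02 CPM. It ran against its neighbour Tbx4 in GRwt/wt, where the Tbx4-high libraries held 2.75 to 3.00 CPM of Tbx2 and replicate 1 held 10.7 and 8.09 CPM. Tbx3 was the steadiest member, at 8.08 to 22.1 CPM over all libraries, and its LFCs against GRwt/wt lay between -0.29 and 0.22. With all 8 groups in 1 fit, edgeR called neither gene in any of the 16 comparisons. The patterns most like Tbx2 were those of Frs3 (rho 0.835) and Ubfd1 (rho 0.778), and those most like Tbx3 were Cdh3 (rho 0.827), a cadherin gene, and Hoxb5os (rho 0.826).

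Set against GRwt/wt, the 9 genes gave few calls. In GRD+L/D+L vehicle, all 9 LFCs were negative with all libraries in, and 1 gene was called lower, Shox2, where 4.71% of all genes tested were called lower and 8.32% in either direction. Their median LFC was -0.81, against -0.05 over all genes tested. The signs of Tbx2, Tbx3, Tbx18 and En1 turned with single libraries: without GRD+L/D+L vehicle replicate 1, Tbx2 (0.28), Tbx3 (0.08) and En1 (0.32) were positive, and without GRwt/wt vehicle replicate 2, Tbx18 (0.61) was. Tbx2 (0.58) and Tbx3 (0.05) were also positive without GRwt/wt vehicle replicate 1, En1 (0.02) without replicate 3 of that group, and Tbx18 without GRD+L/D+L vehicle replicate 2 (0.14) or 3 (0.12). The largest differences were those of Tbx4 (-4.31, SE 1.62, edgeR adjusted p = 0.0685) and Pitx1 (-3.66, SE 1.38, edgeR adjusted p = 0.0690), which were not called and rested on GRwt/wt replicate 2: without it the LFCs were -1.76 and -1.51. In the same comparison 9 of 12 macrophage markers, 1 of 6 mesothelial, 1 of 7 neural and glial (Tubb3) and 1 of 3 heart muscle markers (Tnnt2) tested were called lower, and their part in the differences was not tested. The macrophage sums were 38.4, 17.6 and 4906 CPM in replicates 1, 2 and 3 of GRwt/wt vehicle. They were 7.50 to 81.5 CPM in GRD+L/D+L vehicle, so that only GRwt/wt replicate 3 lay above that range. Without GRwt/wt vehicle replicate 1, which stood apart, 4 members were called lower (Tbx4 -4.82, Pitx1 -4.12, Shox2 -1.37 and Tbx15 -1.05), where 5.24% of all genes were called lower. Without replicate 3, the library with the macrophage markers, 2 were called (Tbx4 -4.73 and Pitx1 -4.09), where 4.14% of all genes were called lower. Without GRD+L/D+L vehicle replicate 1, 3 were called (Tbx4, Pitx1 and Tbx15), with 4.36% of all genes called lower.

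In GRD+L/D+L Dex, 1 of 9 was called lower, Tbx15, where 1.87% of all genes were called lower and 2.75% in either direction. Among the cell type markers, only Tnnt2 was called (lower, LFC -3.05, SE 0.830), 1 of 3 heart muscle markers tested. Its part in the differences was not tested. Pitx1 (-4.64, SE 1.44, edgeR adjusted p = 0.0714), Tbx4 (-5.16, SE 1.67, edgeR adjusted p = 0.0834) and Tbx5 (-1.79, SE 0.595, edgeR adjusted p = 0.0911) were not called. Without GRD+L/D+L Dex replicate 1, which leaves libraries with 0 counts of Tbx4 and at most 1 of Pitx1, both genes were called as well, where 2.14% of all genes were called lower. DESeq2 called 3 members lower in vehicle (Tbx4, Pitx1 and Shox2), where it called 5.1% of all genes lower, and 5 under Dex (these and Tbx5 and Tbx15), where it called 2.94% lower.

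The single changes gave no call with all 8 groups in 1 fit. In GRD/D, 0 of 9 were called by edgeR in vehicle, where 0.00635% of all genes were, and 0 of 9 under Dex, where 0.254% were, and none was called by DESeq2 in either. At an unadjusted p under 0.05 there were 0 members in vehicle, where 12.4% of all genes were, and 2 under Dex (Tbx4 and Pitx1), where 11.1% were. In GRL/L, 0 of 9 were called by edgeR in vehicle (7.78% of all genes) and under Dex (2.59%), and none by DESeq2. None had an unadjusted p under 0.05, where 37.1% of all genes did in vehicle and 22.7% under Dex. The LFCs of Tbx4 and Pitx1 were negative in all 4, from -3.29 (SE 1.49) to -0.52 (SE 1.20), with intervals reaching from -6.43 to 2.01. The vehicle values rested on GRwt/wt replicate 2: without it they were positive, at 0.08 (Tbx4) and 0.20 (Pitx1) in GRD/D and at 1.49 (Tbx4) and 1.62 (Pitx1) in GRL/L. Every comparison in a treatment shares the same GRwt/wt libraries.

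**Figure D3:**
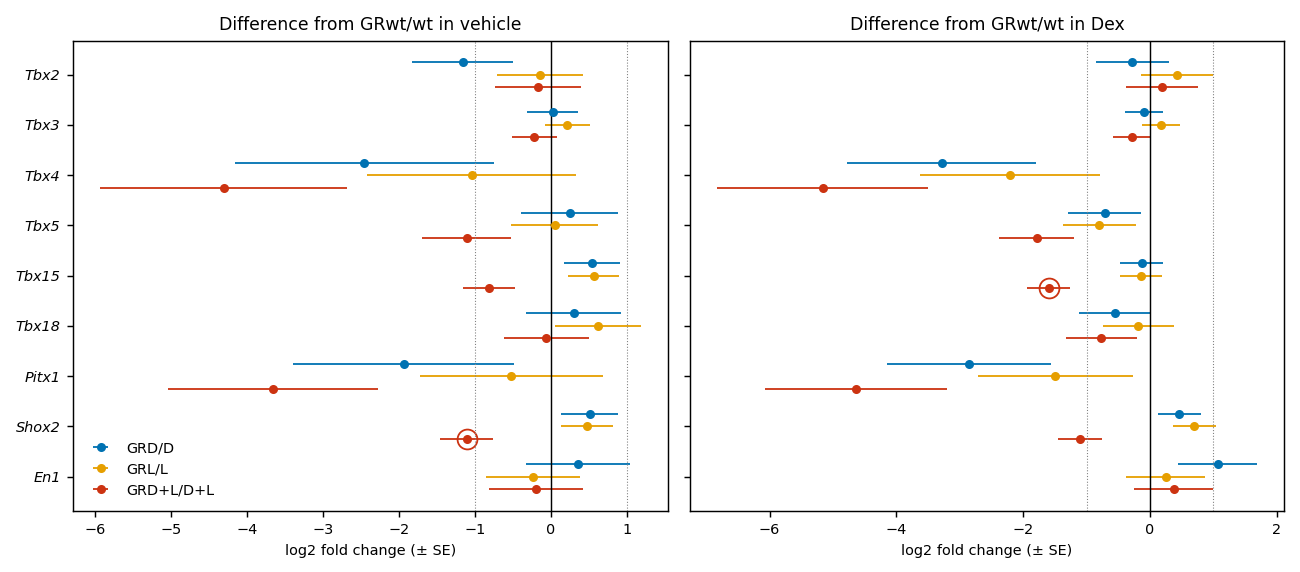
LFC of each gene against GRwt/wt in vehicle (left) and Dex (right), with bars of ± 1 SE, colours for the mutant genotype, dotted lines at -1 and 1 and rings round the calls. The ringed values are Shox2 in vehicle (-1.11) and Tbx15 in Dex (-1.60), both in GRD+L/D+L, and the long bars belong to Tbx4 and Pitx1.

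Between mutants in vehicle, GRD+L/D+L lay below GRL/L without overlap for 5 of 9 genes (Tbx4, Tbx5, Tbx15, Pitx1 and Shox2), where 13.1% of all genes did so. None was called by edgeR, where 0.0953% of all genes were, 3 had an unadjusted p under 0.05 (9.57% of all genes), and DESeq2 and limma voom each called 2 lower, Tbx15 and Shox2, where they called 0.898% and 4.78% of all genes lower. Against GRD/D, 3 of 9 lay lower without overlap (Tbx5, Tbx15 and Shox2), where 23% of all genes did, and Shox2 was the call, where 1.02% of genes were called. Between GRL/L and GRD/D, 0 of 9 members were called by edgeR (1.08% of all genes) and by DESeq2, with none at an unadjusted p under 0.05 (15.5% of all genes), and limma voom called 1 higher, Tbx2, as 4.9% of all genes. GRD/D vehicle has 2 libraries, so groups that do not overlap are more frequent there. Sums of the macrophage markers were 7.50 to 81.5 CPM in GRD+L/D+L vehicle, 317 to 734 CPM in GRL/L vehicle and 276 to 966 CPM in GRD/D vehicle. None of the 12 markers was called by edgeR in these comparisons, and their part in the differences was not tested.

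No member was called for a change with Dex over 5 h. In GRwt/wt, 0 of 9 were called by edgeR, where 0.159% of all genes were, and 0 by DESeq2, with Tbx15 the only member at an unadjusted p under 0.05, as 15.6% of all genes were (LFC 0.77, SE 0.338, 95% interval 0.06 to 1.48, edgeR adjusted p = 0.284). Its 3 Dex libraries (130 to 173 CPM) lay above its 3 vehicle libraries (55.8 to 110 CPM), as for 4.98% of all genes, and without GRwt/wt vehicle replicate 1 its LFC was 0.52. The other LFCs in GRwt/wt ran from -0.55 (En1, SE 0.622) to 1.08 (Tbx4, SE 1.37). In the mutant genotypes, LFCs of the members lay between -0.33 and 0.52, none was called by edgeR or DESeq2, and 0% of all genes were called by edgeR. None had an unadjusted p under 0.05, where 0.343% of all genes did in GRD+L/D+L, against 0.978% in GRD/D and 0.273% in GRL/L.

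The intervals of these Dex responses were narrow for Tbx3 and wide for the hindlimb genes. For Tbx3 in GRL/L the 95% interval was -0.63 to 0.61, and for Shox2 -0.64 to 0.78. For Tbx4 in GRL/L it was -2.98 to 2.81 in this fit, which does not use the pairing of the GRL/L cultures. With a block for each culture, the SE of the Tbx4 response in GRL/L was 0.661 (LFC -0.04), and the Dex to vehicle ratios of its 3 cultures were 0.906, 1.22 and 0.850. The same block gave SEs of 0.110 for Tbx3 and 0.193 for Shox2. The difference in Dex response between each mutant and GRwt/wt was not called for any member by edgeR or DESeq2, with 0.0254% of all genes or fewer called. None had an unadjusted p under 0.05, where 5.05% of all genes did for GRD+L/D+L, against 7.11% for GRD/D and 6.29% for GRL/L.

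**Figure D4:**
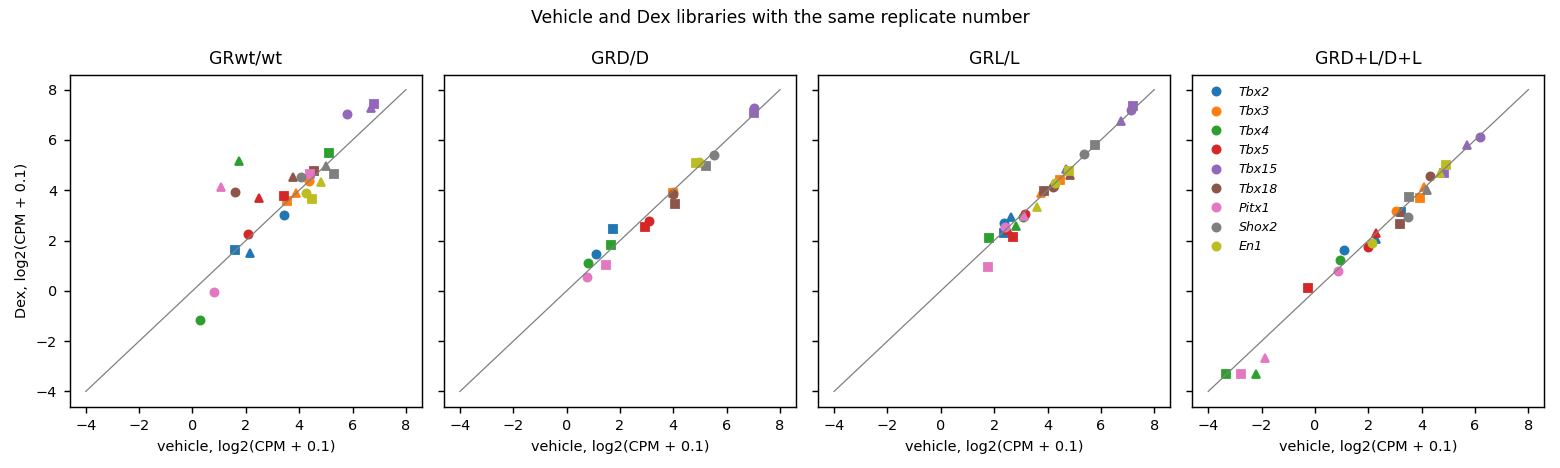
Dex against vehicle level of the 9 genes on the log2(CPM + 0.1) scale for libraries of the same replicate number, with a panel per genotype, a colour per gene, a shape per replicate and the line of equal levels. Points lie close to the line in the mutant genotypes and scatter in GRwt/wt, most of all for Tbx4 and Pitx1.

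Levels in vehicle and Dex libraries of the same number were close in the mutant genotypes. Leaving out values with 3 counts or fewer, 26 of 27 same-numbered Dex to vehicle ratios in GRL/L and 23 of 23 in GRD+L/D+L lay within 1.5-fold, the exception being Pitx1 in GRL/L replicate 2 (0.556). In GRD/D, whose numbers do not pair the libraries, 16 of 18 did, so that such counts alone do not show that a culture kept its pattern. In GRwt/wt, 14 of 27 did, and the ratio for Tbx4 ran from 0.321 in replicate 1 to 11.1 in replicate 3. Over all genes, same-numbered libraries deviated together from their group means in GRD+L/D+L (r 0.652 to 0.887) and in GRL/L (r 0.322 to 0.644) but not in every pair of GRwt/wt, where vehicle replicate 2 was closest to Dex replicate 3 (r 0.544).

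The hindlimb genes had the widest spread of the 9 between libraries of a group. The within-group SD of log2 CPM was 2.08 for Tbx4, the 99.6th percentile of the 15748 genes tested, and 1.66 for Pitx1, the 98.8th percentile. En1 (0.924), Tbx5 (0.798), Tbx18 (0.768) and Tbx2 (0.716) were also above the median of all genes (0.394) and below the 90th percentile (0.942). Tbx15 (0.454), Shox2 (0.450) and Tbx3 (0.380) were the steadiest. In all, 8 of 9 members were above the median of all genes. Relative to genes of the same abundance, the biological coefficient of variation was 3.21 times the trend for Tbx4, 2.41 times for Pitx1, 1.74 times for En1 and 0.808 times for Tbx3. The 2 members with calls were thus among the 3 with the least spread.

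**Figure D5:**
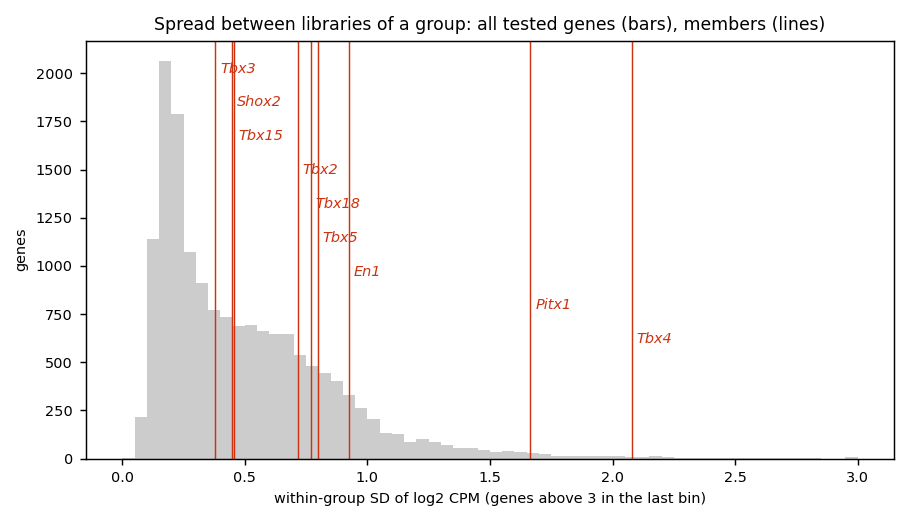
Histogram of the within-group SD of log2 CPM over the 15748 genes tested (bars), with the 9 members as vertical lines. Tbx3, Shox2 and Tbx15 lie near the middle of the distribution, and Pitx1 (1.66) and Tbx4 (2.08) in its far tail.

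Other genes of the limb and trunk programme gave calls in the same comparisons. Of 20 limb signalling genes tested, 2 were called higher and none lower when GRD+L/D+L was set against GRwt/wt in vehicle, Fgf7 (LFC 1.75, SE 0.609, edgeR adjusted p = 0.0497) and Gli3 (LFC 1.17, SE 0.305, edgeR adjusted p = 0.0137), which encode a mesenchymal growth factor and a hedgehog pathway factor. The median LFC of these 20 was 0.15. Of 42 other mesenchyme factors tested, 4 were called higher and 7 lower, with a median LFC of -0.53. Over all genes tested, 3.62% were called higher and 4.71% lower. Foxd1 (LFC 2.35, SE 0.743) and Meis2 (LFC 1.52, SE 0.326) were higher, and Msx1 was lower (0.425 against 11.9 CPM, LFC -4.78, SE 1.06).

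Under Dex, the same contrast called 0 of the 20 signalling genes higher and 1 lower (Fgfr2, LFC -1.57, SE 0.393) and 2 higher and 5 lower of the 42 factors, where 0.876% of all genes were called higher and 1.87% lower. Meox1 (LFC 5.56, SE 1.26) and Meis2 (LFC 1.25, SE 0.324) were the higher ones, and Lhx2 (LFC -5.04, SE 1.21) and Msx1 (LFC -4.63, SE 1.05) were among the lower ones. In GRL/L against GRwt/wt, 2 signalling genes were called higher in vehicle, Wnt5a (LFC 1.30, SE 0.204), a ligand of limb outgrowth, and Gli3 (LFC 1.15, SE 0.305), and Fgfr2 was called lower under Dex (LFC -1.75, SE 0.395). Of the 42 factors, 3 were called lower and 0 higher in GRL/L in each treatment, among them Msx2 (LFC -3.05, SE 0.777 in vehicle, and -2.85, SE 0.762 in Dex) and Lhx2 in Dex (LFC -4.46, SE 1.15). Of all genes, 4.93% were called higher and 2.84% lower in GRL/L vehicle, and 1.37% higher and 1.23% lower in GRL/L Dex. In GRD/D, 0 of the 20 and 0 of the 42 genes were called against GRwt/wt in either treatment, where 0.00635% of all genes were called in vehicle and 0.254% under Dex.

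Between mutants in vehicle, Wnt5a (LFC -1.10, SE 0.203) and Osr2 (LFC -3.24, SE 0.596) were called lower in GRD+L/D+L against GRL/L. Foxc1 was called higher in GRD+L/D+L than in GRD/D (LFC 2.23, SE 0.527). Of 11 other T-box genes, 3 passed the filter (Tbx1, Tbx6 and Mga) and none was called in any comparison. Of 8 genes reported as targets of the members, among them Cdkn2a, Cdkn1a and Fgf10, 5 passed the filter and none was called. In no comparison were more than 8.32% of all genes called.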

How the data were processed

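The values are gene counts that the authors deposited for 23 libraries. Per the labels and the study's methods, reads were checked with FastQC, aligned to mm10 with HISAT2 2.1.0 and counted with featureCounts 2.0.0 from uniquely mapped reads. The annotation release and the strand setting are not given in the sources used here. Counts were tested as deposited with edgeR 4.0.16 in R 4.3.3 (TMM scaling, filterByExpr, quasi-likelihood F test, 8 groups in 1 fit, 15748 genes kept), and 16 comparisons were made. A gene was called where its LFC was 1 or more in size with an adjusted p of 0.05 or less, the thresholds of the study. The code was tested on simulated data. CPM used TMM library sizes. Gene positions and exon lengths were from GENCODE M21, which holds 55227 of the 55487 identifiers.

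The members and lists were chosen with earlier results of these data known. All members were described. From each other list, at most 2 risers and 2 fallers were named per comparison, those of largest LFC among calls whose groups did not overlap, and the 2 genes most like each member by Spearman rho over 23 libraries. Target and T-box genes named beside a count of 0, and markers, were named after their values were seen. Some genes that this rule would name are counted in their list but not reported here.

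Vehicle and Dex libraries of a number paired in GRD+L/D+L and in GRL/L, where every same-number correlation of deviations was over 0.1 (0.322 to 0.887), and not in GRwt/wt or GRD/D. The main fit took all 23 libraries as independent. A paired culture thus entered the spread behind genotype comparisons through both treatments. The SEs, intervals and adjusted p-values of these comparisons can be too small. The alternatives were RLE and upper-quartile scaling, no filter or at least 10 counts in every library, an adjusted p alone, a prior count of 2, a replicate block, only the groups compared, DESeq2 1.42.0, limma 3.58.1 voom with quality weights, and each library left out. Replicates are cultures from separate embryos. Depths were 16452539 to 23117080 counts. The biological coefficient of variation of Tbx4 was 3.21 times the trend at its abundance, and the part of depth in its precision was not tested.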

Additional observations from a re-analysis of the deposited data

How the results depend on the processing

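Every alternative kept the direction of the 3 calls. Without the expression filter, 0 members were called in GRD+L/D+L against GRwt/wt or against GRD/D in vehicle. With only the groups compared in the fit, fewer libraries estimate the spread, and no culture enters a genotype comparison in both treatments. The counts for GRD+L/D+L were then 0 against GRwt/wt and against GRD/D in vehicle, and 0 against GRwt/wt in Dex. They were 1 for GRL/L against GRD/D in vehicle (Tbx2, where 3.92% of all genes were called higher) and 1 for GRD/D against GRwt/wt in Dex (En1, 0.311%). DESeq2 called 3 members in GRD+L/D+L against GRwt/wt in vehicle, 5 in Dex, 2 against GRL/L and 2 against GRD/D, all lower, where it called 5.1%, 2.94%, 0.898% and 1.84% of all genes lower. Voom with quality weights, which gave GRwt/wt vehicle replicate 1 a weight of 0.0224, called 2, 4, 2 and 3 lower (3.99%, 6.67%, 4.78% and 5.5% of all genes), and 1 (Tbx2) for GRL/L against GRD/D. With 1 library left out, counts ran from 0 to 4 for GRD+L/D+L against GRwt/wt in vehicle, 0 to 3 in Dex and 0 to 1 against GRD/D. The cause was not tested for these changes.

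With the replicate number as a block over all libraries, the counts of members called were the same in all 16 comparisons: 1 in each of the 3 with a call (Shox2 -1.08, edgeR adjusted p = 0.0421 against GRwt/wt) and 0 elsewhere. The cultures of a number differ between genotypes, so this block does not account for the pairing. With a block for each culture within a genotype, 0 members were called for Dex, although in GRwt/wt, whose numbers do not pair the libraries, Tbx15 (LFC 0.82) had an edgeR adjusted p = 0.0148 and En1 (LFC -0.56) an edgeR adjusted p = 0.0401. Tbx4 and Pitx1 were at 3 counts or fewer in 4 libraries each, where low counts limit their levels.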
